A study of Mus musculus with 6 samples.

Results

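Tumor necrosis factor (TNF), its close relatives, their receptors, and 3 feedback genes that the pathway itself induces were followed as 9 genes in mouse kidneys that were naive, rejecting, or tolerized, class of cell by class of cell. The members were taken by symbol from the gene lists of the count matrices, and all 9 were among the 28208 genes that the 6 matrices shared. They were 4 ligands (Tnf, Lta, Ltb, and Tnfsf10), 2 receptors (Tnfrsf1a and Tnfrsf1b), and 3 feedback genes (Nfkbia, Tnfaip3, and Birc3).

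The study compared 3 groups of 2 kidneys, 1 droplet library each. Naive kidneys were untransplanted kidneys of wild-type male C57BL/6 (B6) mice aged 10 to 12 weeks. Rejecting kidneys were kidneys from BALB/c mice placed in male B6 recipients whose own kidneys had both been removed, with a stated age of 6 to 7 weeks, and were taken on day 15. Tolerized kidneys came from the same kind of transplant and day, and their recipients were in addition infused with BALB/c splenocytes that had been treated with the cross-linker ethylenecarbodiimide. A graft holds cells of the donor and of the recipient, and the counts used here do not separate them. Strain, stated age, and the gene list of the matrices differed between naive and transplanted kidneys, and the sex of the kidney may have differed. The headers name a software version for the transplanted ones alone. These and transplantation cannot be told apart. The study describes 2 experiments and side-by-side handling of the groups, but the labels give no experiment for a kidney, so that no term for it entered a test. Each value is from 1 kidney, and the p values rest on the spread between 2 kidneys per group. In the test, the spread of a gene is taken from every kidney in the fit and drawn toward that of all genes tested.

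TNF is a cytokine made above all by macrophages and activated T cells. It binds TNFR1 (Tnfrsf1a), which most cells carry, and TNFR2 (Tnfrsf1b), which is found mainly on leukocytes and some endothelium. Through the adaptor TRADD and the kinase RIPK1, TNFR1 activates the IKK complex, which marks the inhibitor IκBα (Nfkbia) for destruction and sets the transcription factor NF-κB free. NF-κB then raises genes for adhesion molecules and chemokines, and also those for its own inhibitors, among them IκBα and the ubiquitin-editing enzyme A20 (Tnfaip3). In kidney grafts, TNF and lymphotoxin are among the cytokines of T cell–mediated injury.

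Sequence before the start of some members holds a match to the NF-κB motif. NF-κB binds a 10-base motif, the κB consensus, which was searched on both strands in the 250 bases before each start in the RefSeq promoters of build GRCm38.p6. All 9 members matched this table. Tnfaip3, which has 2 starts in the table, held 2 matches before the first, Nfkbia held 1, and Ltb held 1. No match was in this window of the other 6 members, which says only that these letters were not there. Of 32851 promoters of all genes, 1281 (3.9%) held a match, and 0.493% held 2. The 4 matches shown are all those found among the members. Each is given 5′ to 3′ on the gene's strand, and the capitals mark the match.
Nfkbia, minus strand, chr12:55492657-55492686: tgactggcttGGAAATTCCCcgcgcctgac
Tnfaip3, minus strand, chr10:19015516-19015545: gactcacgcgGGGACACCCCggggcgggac
Tnfaip3, minus strand, chr10:19015411-19015432: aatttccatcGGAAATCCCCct
Ltb, plus strand, chr17:35194410-35194439: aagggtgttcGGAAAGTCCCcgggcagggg
The first base of the match lay 29 bases before the start in Nfkbia, 125 and 12 bases before it in Tnfaip3, and 87 bases before it in Ltb. The starts are those of RefSeq, and for Tnfaip3 and Ltb they differ from those of the GENCODE annotation in the next paragraph. Both Tnfaip3 matches lie inside the GENCODE bounds of that gene. A match is a string of letters and was not tested as a site here.

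Ltb, Tnf, and Lta are neighbors. In GRCm38 with the GENCODE M21 annotation, Ltb lay at chr17:35194439-35196320 on the plus strand, Tnf at chr17:35199381-35202007 and Lta at chr17:35203165-35205351 on the minus strand. The gap between Ltb and Tnf was 3060 bp, that between Tnf and Lta 1157 bp, and the whole stretch 10913 bp. A microRNA gene lay inside the bounds of Ltb (Mir6973a) and of Lta (Mir6974) on the same strand. The other members lay apart from these, Tnfsf10 at chr3:27317028-27342427, Tnfrsf1a at chr6:125349362-125362484, Tnfrsf1b at chr4:145213463-145246870, Nfkbia at chr12:55489410-55492647, Tnfaip3 at chr10:19000910-19015657, and Birc3 at chr9:7848699-7873186.

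Cells were grouped into 45 clusters, 37 of which were named by marker genes with the ending "-like". They held 43403 of the 45667 cells used. The libraries held 34874702 to 96803926 unique molecular identifiers (UMIs, each a counted RNA molecule), and pairs of libraries shared 0 to 56 cell barcodes. The median mitochondrial share was 24.9% and 25.5% in naive kidneys and 5.38% to 13.7% in transplanted kidneys. T cell-like cells numbered 31 and 40 (naive), 3385 and 2507 (rejecting), and 1632 and 876 (tolerized). In cluster 5, which is T cell-like and shallow (918 UMIs in the median cell, 20.3% of them mitochondrial), 2035 of 2318 cells came from rejecting kidney 1. NK cell-like cells numbered 124 to 150 per transplanted kidney, and 9 and 14 in the naive kidneys, so that no naive value is given for them. The levels below are UMIs of a gene per 1000000 UMIs of its class in 1 kidney (CPM). Fold changes are log2 values of TMM-scaled sums from edgeR's quasi-likelihood test with their standard errors (SE), and an FDR is the Benjamini-Hochberg adjusted p of that test over all genes tested in the class, called when under 0.05.

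**Figure D1:**
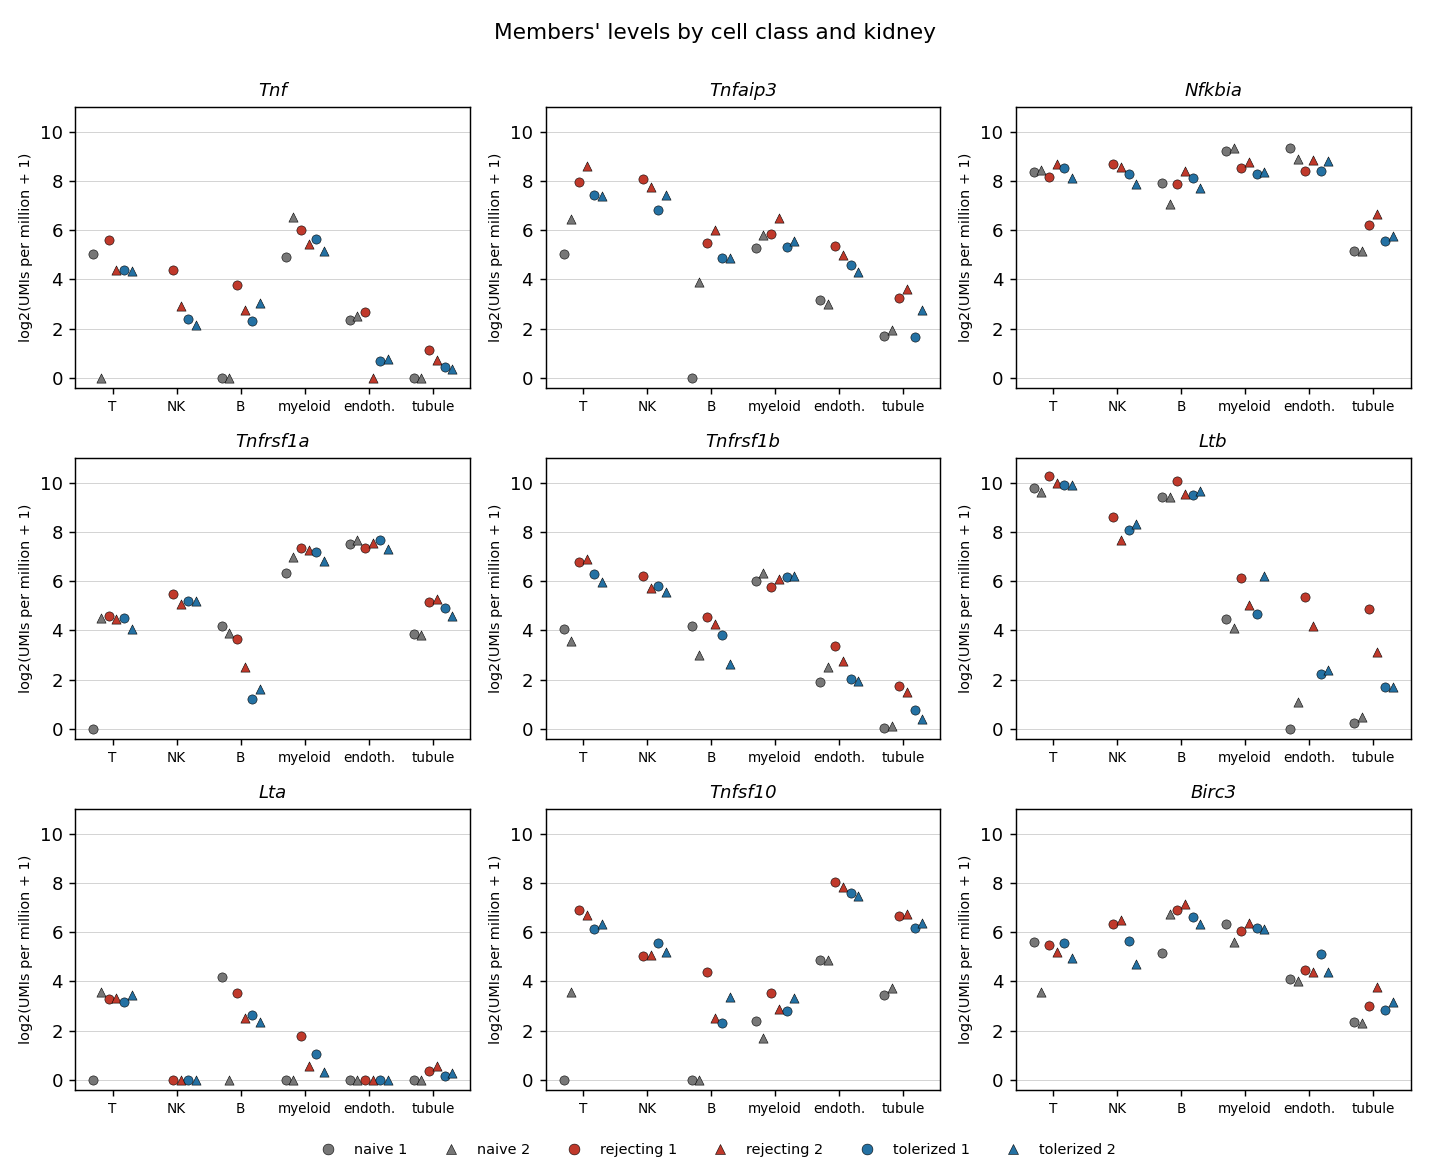
Levels of the 9 members as log2(CPM + 1) on the vertical axes, by cell class on the horizontal axes. Each point is 1 kidney (gray naive, red rejecting, blue tolerized, circles replicate 1, triangles replicate 2), and sums of fewer than 20 cells are left out. Ltb stood between 966.7 and 1233 CPM in T cell-like cells of transplanted kidneys and between 2.23 and 28.3 in tubule-like cells, whereas Tnfsf10 stood highest in endothelium-like cells.

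Tnf was a gene of the myeloid-like cells, with a lower level in T cells. In myeloid-like cells, Tnf stood at 29.3 and 91.1 CPM (naive), 64.0 and 42.4 (rejecting), and 48.2 and 34.5 (tolerized). The groups overlapped, and the naive kidneys lay furthest apart. The fold change of tolerized over rejecting kidneys was −0.31 (SE 0.26, FDR 0.9 by edgeR), and its 95% interval ran from −0.92 to 0.29. In T cell-like cells, Tnf stood at 47.6 and 19.8 CPM (rejecting) against 19.8 and 19.3 (tolerized), so that rejecting kidney 1 was high and the other 3 alike. That fold change was −0.62 (SE 0.36, FDR 0.673 by edgeR) and, without rejecting kidney 1, its sign turned, at 0.08.

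A pair of rare classes had median Tnf levels above that of the macrophages. Over transplanted kidneys with at least 20 cells of a class, mast cell- or basophil-like cells held 100.2 to 273.7 CPM in 3 kidneys, on 13 to 55 UMIs. Neutrophil-like cells held 45.7 to 332.9 in 4 kidneys, on 5 to 21 UMIs. Macrophage-like cells, with 137 to 726 UMIs, held 42.8 to 76.9 CPM and overlapped the neutrophil-like range. B cell-like cells held 3.90 to 12.8 CPM and NK cell-like cells 3.37 to 20.02, ranges that overlapped as well.

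In tubule-like cells, no Tnf UMI was counted in the naive kidneys, against 22 and 8 (rejecting) and 16 and 16 (tolerized) elsewhere. A count of 0 allows 3 counts over the naive group. Against that bound, the Tnf level pooled over a group was 16.0-fold higher in rejecting and 5.04-fold higher in tolerized than in naive kidneys. These ratios leave out the counting error of the transplanted counts and the spread between kidneys. Both comparisons passed the test (FDR 0.00542 and 0.0233 by edgeR, the second lost with doublets kept and without any 1 of the naive or tolerized kidneys), at levels of 1.20 and 0.646 CPM (rejecting) and 0.345 and 0.278 (tolerized). The 10 macrophage markers were also higher in transplanted kidneys, and all 10 were detected in this class in each kidney. Their summed level in tubule-like cells was 86.2 and 75.6 CPM (naive), 465.6 and 221 (rejecting), and 168 and 92.4 (tolerized). For each 100 macrophage marker UMIs, tubule-like cells held 0.205 to 0.301 Tnf UMIs and myeloid-like cells of the same kidneys 0.144 to 0.233. The part of RNA from other cells in this result was not tested. Bounds and intervals on counts cover counting error only.

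Ltb encodes lymphotoxin β, which forms the membrane-bound lymphotoxin heterotrimer with the product of Lta and signals through the lymphotoxin β receptor. It stood highest in lymphocytes. T cell-like cells held 868 and 793 CPM (naive), 1233 and 1011 (rejecting), and 967 and 968 (tolerized). Every transplanted kidney was above both naive ones, which rest on 55 and 73 UMIs. Tolerized kidneys were below rejecting ones, and after TMM scaling the fold change was −0.06 (SE 0.23, FDR 0.959 by edgeR), with a 95% interval from −0.59 to 0.47. Thinned shares were taken over cells with at least 1000 UMIs alone, which in rejecting kidney 1 were 2170 of 3385 T cell-like cells. With each such cell thinned to 1000 UMIs, a Ltb UMI was found in 52.6% to 64.2% of T cell-like cells over the 6 kidneys. In tubule-like cells the share was 0.020% to 4.65%. The unthinned shares, over all cells of the class, were 70.3% to 90.3% and 0.081% to 15.9%, at median depths of 1286 to 4774.5 and 3625 to 11800 UMIs.

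Next to T cells in the order of Ltb over transplanted kidneys stood B cell-like cells (726 to 1077 CPM), neutrophil-like cells (458 to 745), mast cell- or basophil-like cells (219 to 555), and NK cell-like cells (202 to 389). Each of these ranges overlapped the one before it. Myeloid-like cells as a whole held 24.1 to 72.9 CPM, and within them the macrophage/monocyte-like cells held 119 to 224 and the macrophage-like cells 9.89 to 32.1. Within T cell-like cells, Ltb stood highest in cluster 18, which was led by Foxp3, Il2ra, and Ctla4, genes of regulatory T cells. Its levels there were 1963 and 1542 CPM (rejecting) against 1515 and 1468 (tolerized). Cluster 0, led by Cd8a and Pdcd1, held 1182 and 999.7 (rejecting) against 824 and 836 (tolerized).

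Lta was scarce. T cell-like cells held 8.80, 8.99, 7.96, and 9.78 CPM in rejecting 1, rejecting 2, tolerized 1, and tolerized 2, a narrow range in which the groups overlapped. The fold change of tolerized over rejecting kidneys was 0.13 (SE 0.28, FDR 0.91 by edgeR). B cell-like cells of the transplanted kidneys held 4.14 to 10.5 CPM. No Lta UMI was counted in NK cell-like or endothelium-like cells of any kidney. The 31 and 40 T cell-like cells of naive kidneys 1 and 2 held 0 and 10.9 CPM, on 0 and 1 Lta UMIs. These counts are too few to tell the naive level from the transplanted one. Over all cells, each of the 2 naive kidneys gave 1 Lta UMI, against 66 to 129 in each transplanted kidney. Transplanted kidneys held 876 to 3385 T cell-like cells, so that the counts over all cells do not show a difference in level.

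Tnfsf10 encodes TRAIL, a ligand that can trigger apoptosis through the death receptor DR5. Over transplanted kidneys it stood highest in endothelium, and its ranges in tubule-like cells (70.0 to 104 CPM) and T cell-like cells (69.5 to 117) overlapped. Endothelium-like cells held 28.3 and 27.9 CPM (naive), 264 and 227 (rejecting), and 193 and 178 (tolerized). Tubule-like cells held 9.98 and 12.3 CPM (naive), 101 and 104 (rejecting), and 70.0 and 81.7 (tolerized). In both classes the 3 groups did not overlap, with rejecting kidneys at the top and tolerized kidneys closer to them than to naive ones.

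Tnfsf10 rose in both transplanted groups in both classes. In endothelium-like cells the fold change over naive kidneys was 3.07 (SE 0.27, FDR 0.000118) in rejecting and 2.68 (SE 0.26, FDR 0.000204) in tolerized kidneys by edgeR. In tubule-like cells it was 2.84 (SE 0.20, FDR 5.45e-05) and 2.57 (SE 0.19, FDR 9.38e-05) by edgeR. These 4 calls held under each of the 14 or 15 alternatives per comparison. Between tolerized and rejecting kidneys the differences of −0.39 (SE 0.22, FDR 0.88) in endothelium and −0.28 (SE 0.18, FDR 0.823) in tubule were not called by edgeR.

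The higher level of Tnfsf10 was found in every segment of the nephron. Loop of Henle-like cells held 19.2 and 20.4 CPM in naive and 119 to 148 in transplanted kidneys, and collecting duct-like cells 16.4 and 17.6 against 89.8 to 149.7. Proximal tubule-like cells held 8.99 and 11.7 against 60.3 to 95.2, and distal convoluted tubule-like cells 4.77 and 7.26 against 55.6 to 79.5. Transplanted kidneys were above naive ones in each segment, without overlap. For each 100 T cell marker UMIs, T cell-like cells of transplanted kidneys held 0.717 to 1.25 Tnfsf10 UMIs, tubule-like cells 64.8 to 501.6, and endothelium-like cells 111 to 1062. Neutrophil-like cells held no Tnfsf10 UMI, and myeloid-like cells of the transplanted kidneys held 6.04 to 10.4 CPM.

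Tnfrsf1a, the receptor found on most cells, was detected in each class tested. Myeloid-like cells held 79.5 and 125 CPM (naive), 160.4 and 153 (rejecting), and 145 and 112 (tolerized). Endothelium-like cells held 181 and 202, 161 and 187, and 201 and 156 in the same order. No difference was called in either class, and in endothelium all groups overlapped. Tubule-like cells held 13.4 and 13.1 CPM (naive), 34.8 and 38.1 (rejecting), and 29.1 and 23.1 (tolerized). There Tnfrsf1a rose by 1.10 (SE 0.16, FDR 0.00227) in rejecting and by 0.77 (SE 0.16, FDR 0.0129) in tolerized kidneys over naive ones by edgeR. The second call was lost without either naive kidney, without tolerized kidney 1, and in the clusters present in every kidney (0.47, FDR 0.109). Tubule-like cells held 7.48 to 25.0 Tnfrsf1a UMIs for each 100 macrophage marker UMIs, and myeloid-like cells of the same kidneys 0.474 to 0.585. The highest transplanted levels were those of neutrophil-like (317 to 530.5 CPM) and macrophage/monocyte-like cells (269 to 368), which overlapped each other.

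Tnfrsf1b was a leukocyte gene. Over transplanted kidneys, macrophage/monocyte-like cells held 197 to 329 CPM and neutrophil-like cells 143 to 209, which overlapped. T cell-like cells held 61.7 to 119, monocyte-like cells 63.4 to 86.6, and NK cell-like cells 45.6 to 72.1, which overlapped as well. In T cell-like cells its levels were 108 and 119 CPM (rejecting) against 77.7 and 61.7 (tolerized), without overlap. The fold change was −0.56 (SE 0.22, FDR 0.611 by edgeR) and was not called. Within T cells, cluster 18 with Foxp3 stood highest, at 232 and 227 CPM (rejecting) against 144 and 117 (tolerized). In tubule-like cells, 3 UMIs were counted in the naive kidneys together, 67 in rejecting, and 52 in tolerized ones. The ratio to naive kidneys was 35.6 (95% interval of counting 11.7 to 177) in rejecting and 8.19 (2.65 to 41.0) in tolerized kidneys, and edgeR called both (FDR 0.00268 and 0.0346). The second call was lost without either naive kidney or without tolerized kidney 1 (FDR 0.111 to 0.228), and also with doublets kept, at most 20% mitochondrial UMIs, or proximal tubule-like cells alone (FDR 0.0537 to 0.0791). For each 100 macrophage marker UMIs, tubule-like cells of transplanted kidneys held 0.358 to 0.84 Tnfrsf1b UMIs and myeloid-like cells 0.194 to 0.381. The part of RNA from leukocytes in these counts was not tested.

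Nfkbia, the gene of IκBα, is raised by NF-κB within minutes and also by the handling of tissue. In T cell-like cells it held 332 and 348 CPM (naive), 286 and 413 (rejecting), and 369 and 279.6 (tolerized), and all groups overlapped. The fold change of tolerized over rejecting kidneys was 0.03 (SE 0.28, FDR 0.983 by edgeR). Within T cells the clusters lay further apart than the groups did. Cluster 18 with Foxp3 held 436 to 969 CPM over transplanted kidneys, cluster 9 with Cd4 and Tcf7 377 to 739.8, and cluster 0 with Cd8a 103 to 184. Over all classes of the transplanted kidneys, mast cell- or basophil-like cells held 6390 to 8719 CPM and neutrophil-like cells 1279 to 2229, and both ranges lay apart from each other and above the next class, conventional DC-like cells at 489 to 828.

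In tubule-like cells, Nfkbia held 34.4 and 34.5 CPM (naive), 72.8 and 100.1 (rejecting), and 46.2 and 53.9 (tolerized), and the 3 groups did not overlap. It rose by 0.97 (SE 0.20, FDR 0.00875) in rejecting over naive kidneys by edgeR, a call lost without either naive kidney (FDR 0.0602 and 0.0632) and among cells with at most 20% mitochondrial UMIs (0.59, FDR 0.105). The 10 dissociation genes, described for myeloid-like cells in the next paragraph, summed to 1699 and 1357 CPM (naive), 4000.3 and 3191 (rejecting), and 2843 and 1780.2 (tolerized) in tubule-like cells, and their part was not tested. The difference of 0.34 (SE 0.20, FDR 0.248) of tolerized over naive and that of −0.63 (SE 0.20, FDR 0.356) of tolerized over rejecting kidneys were not called. Collecting duct-like cells had the highest levels among the segments, with 83.1 and 97.8 CPM (naive), 162 and 247.5 (rejecting), and 95.4 and 144 (tolerized). There the naive and tolerized kidneys overlapped.

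In myeloid-like cells Nfkbia stood highest in naive kidneys, with 594 and 653 CPM (naive), 362 and 429 (rejecting), and 314 and 329 (tolerized). The difference of −0.92 (SE 0.21, FDR 0.0318 by edgeR) of tolerized from naive kidneys was called, and that of −0.68 (SE 0.21, FDR 0.0586) of rejecting from naive kidneys was not. The first was lost without any 1 of the naive or tolerized kidneys (FDR 0.0567 to 0.209). The cells behind these sums differed. Cluster 41, a macrophage-like cluster, held 129 naive cells among its 131, which were 35 of the 86 myeloid-like cells of naive kidney 1 and 94 of the 146 of naive kidney 2. In monocyte-like cells alone, Nfkbia held 344 and 323 CPM (naive), 475 and 564 (rejecting), and 382 and 336 (tolerized), and the sign of both differences turned, to 0.31 (FDR 0.531) in tolerized and 0.77 (FDR 0.0888) in rejecting kidneys, neither called by edgeR. In macrophage-like and macrophage/monocyte-like cells alone both were called, at −1.38 (FDR 0.00648) and −1.18 (FDR 0.00895). The summed level of 10 genes known to rise during tissue dissociation, such as Fos and Hspa1a, was 11165 and 12434 CPM in naive and 3227 to 5064 in transplanted myeloid-like cells. Its part in the result was not tested.

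Tnfaip3, the gene of A20, stood lower in both tolerized than in both rejecting kidneys in each of the 6 classes. T cell-like cells held 246 and 385 CPM (rejecting) against 169 and 166 (tolerized), and 31.6 and 86.9 on 2 and 8 UMIs in naive kidneys. NK cell-like cells held 268 and 212 against 112 and 170.4, and B cell-like cells 43.0 and 63.9 against 28.0 and 28.0. Myeloid-like cells held 56.5 and 88.5 against 38.8 and 46.8, endothelium-like cells 39.8 and 31.2 against 23.1 and 18.5, and tubule-like cells 8.48 and 11.2 against 2.15 and 5.85. In each class the lower rejecting kidney was above the higher tolerized kidney.

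None of these 6 differences was called. By edgeR, the fold change of tolerized over rejecting kidneys was −0.78 (SE 0.28, FDR 0.579) in T cell-like, −0.62 (SE 0.31, FDR 0.694) in NK cell-like, and −0.79 (SE 0.30, FDR 0.988) in B cell-like cells. It was −0.71 (SE 0.24, FDR 0.714) in myeloid-like, −0.78 (SE 0.35, FDR 0.741) in endothelium-like, and −1.10 (SE 0.45, FDR 0.51) in tubule-like cells. Of 4331 genes tested in all 6 classes, 82 (1.89%) were lower without overlap in each class and 23 were higher. Of the 4 members tested in all 6 classes, Tnfaip3 was the only one among the 82. The 6 classes come from the same 4 kidneys and are not independent of each other.

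Within T cell-like cells, Tnfaip3 was lower in tolerized kidneys in 4 of the 4 clusters. Cluster 0 with Cd8a held 249 and 358 CPM (rejecting) against 161 and 139 (tolerized), cluster 9 with Cd4 196 and 391 against 152 and 167, and cluster 18 with Foxp3 312 and 517 against 224 and 208. Cluster 5, the one with few UMIs, held 258 and 532.5 against 137 and 216, and its tolerized values rest on 49 and 74 shallow cells. The groups did not overlap in any of them. These clusters are parts of the T cell-like sum of the same 4 kidneys and are not independent. In that sum 31.4% of all genes were lower in tolerized kidneys without overlap, and no such share was taken per cluster. Among T cell-like cells with at least 1000 UMIs, each thinned to 1000, a Tnfaip3 UMI was found in 21.9% and 31.4% (rejecting) against 15.6% and 15.8% (tolerized). These were 2170 of 3385 and 2304 of 2507 cells (rejecting) and 1593 of 1632 and 850 of 876 (tolerized), so that rejecting kidney 1 lost the most. In tubule-like cells taken the same way, the share was 0.172% to 1.08% over the 6 kidneys. Without thinning and over all T cell-like cells, the shares were 32.1%, 58.7%, 46.3%, and 43.7%, which overlap, at median depths of 1286, 2688, 4583.5, and 4774.5 UMIs in that order. The macrophage markers in T cell-like cells summed to 1067 and 217.5 CPM (rejecting) against 155 and 80.4 (tolerized), and their part was not tested.

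**Figure D2:**
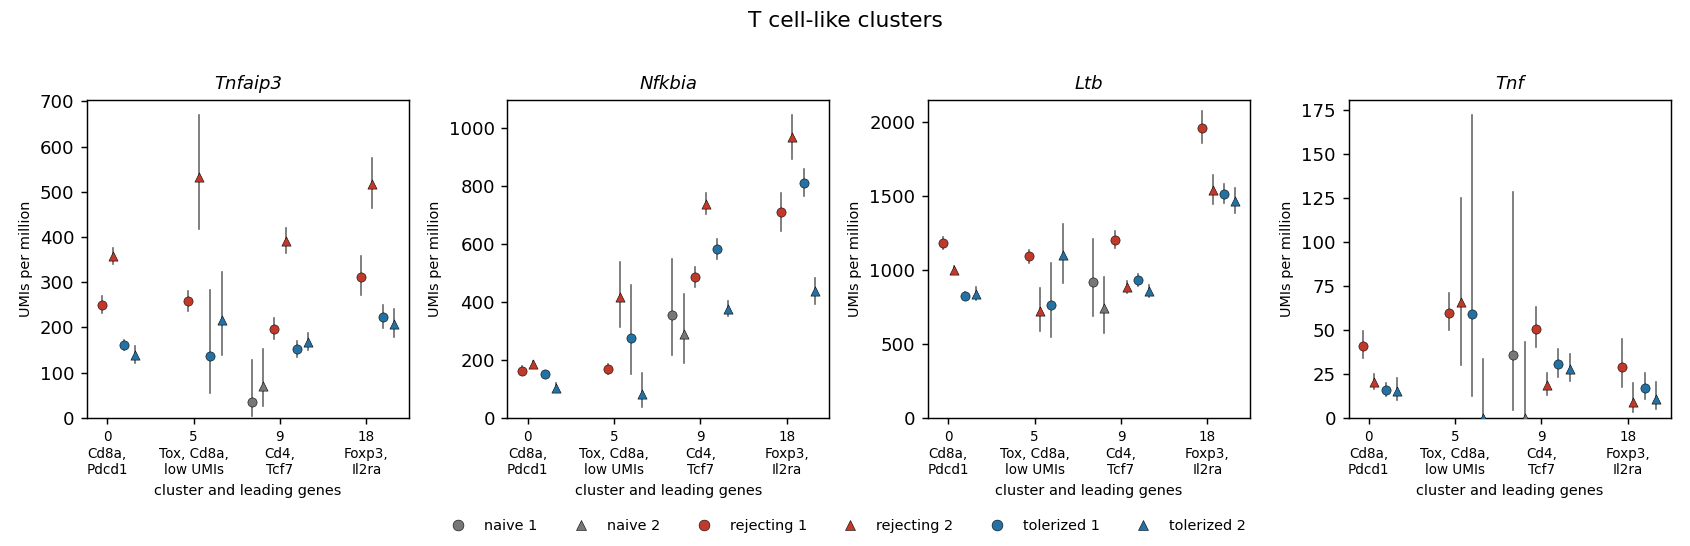
Levels of Tnfaip3, Nfkbia, Ltb, and Tnf in the 4 T cell-like clusters (horizontal axes, with genes that lead them), in CPM from 0 on the vertical axes. Points are kidneys as in the plot of all members and bars are 95% intervals of counting. Red points of Tnfaip3 lie above the blue ones in each cluster, and Nfkbia stands at 103 to 184 CPM in cluster 0 and at 436 to 969 in cluster 18. Naive points are present in cluster 9 alone.

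Against naive kidneys, Tnfaip3 rose in endothelium-like cells, from 8.09 and 6.97 CPM to 39.8 and 31.2 (rejecting) and 23.1 and 18.5 (tolerized). The fold changes were 2.20 (SE 0.43, FDR 0.00775) and 1.42 (SE 0.42, FDR 0.0477) by edgeR. The first was lost without naive kidney 2 or without rejecting kidney 1. The second was held under 6 of 14 alternatives and lost without any 1 of the naive or tolerized kidneys. In tubule-like cells it rose from 2.28 and 2.86 CPM in naive to 8.48 and 11.2 in rejecting kidneys, by 1.57 (SE 0.47, FDR 0.035). This call was lost in clusters present in every kidney (0.96, FDR 0.194), at most 20% mitochondrial UMIs (FDR 0.0656), and without any 1 of the naive or rejecting kidneys. Tolerized and naive kidneys overlapped there (0.47, SE 0.46, FDR 0.491). The 13 T cell markers moved along, from 12.1 and 4.65 CPM (naive) to 223 and 204 (rejecting) in endothelium-like and from 3.30 and 2.95 to 156 and 55.3 in tubule-like cells. For each 100 T cell marker UMIs, T cell-like cells of transplanted kidneys held 1.74 to 3.53 Tnfaip3 UMIs, tubule-like cells 5.44 to 35.9, and endothelium-like cells 15.3 to 127.6. The part of T cell RNA in these differences was not tested. The highest transplanted levels of Tnfaip3 were those of mast cell- or basophil-like cells (368 to 936 CPM), neutrophil-like cells (169 to 453), and T cell-like cells (166 to 385), which overlapped.

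Birc3, the gene of cIAP2, a ubiquitin ligase of the TNF receptor complex and itself an NF-κB target, showed little difference between groups in T and myeloid-like cells. T cell-like cells held 44.2 and 36.1 CPM (rejecting) against 46.5 and 30.0 (tolerized) (0.09, SE 0.25, FDR 0.941 by edgeR). Myeloid-like cells held 79.5 and 47.8 (naive), 64.7 and 81.1 (rejecting), and 70.5 and 68.0 (tolerized), and all groups overlapped. NK cell-like cells held 80.1 and 88.1 (rejecting) against 48.5 and 25.3 (tolerized), a difference of −1.10 (SE 0.38, FDR 0.511) that was not called. In the same NK cell-like sums the macrophage markers were at 1390 and 502 CPM (rejecting) against 156 and 62.4 (tolerized), and their part was not tested. The highest levels were in neutrophil-like cells (121 to 380 CPM) and B cell-like cells (78.7 to 140.2), which overlapped. In tubule-like cells Birc3 held 4.07 and 4.02 CPM in naive and 6.18 to 12.5 in transplanted kidneys, and its difference of 0.89 (SE 0.32, FDR 0.0632) in rejecting kidneys was not called.

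Tolerized and rejecting kidneys were thus not told apart by any member at the FDR used. The test took in 9 members in T cell-like, 7 in NK cell-like, 9 in myeloid-like, 5 in B cell-like, 6 in endothelium-like, and 8 in tubule-like cells, and called 0 in each. Calls among all genes were equally scarce, with 0% in 5 classes and 0.104% (5 of 4813 genes) in NK cell-like cells. At an unadjusted p under 0.05, edgeR gave 2 of 9 members in T (8.05% of all genes), 1 of 7 in NK (7.63%), 1 of 9 in myeloid (6.44%), 1 of 5 in B (4.59%), 2 of 6 in endothelium (6.41%), and 5 of 8 in tubule-like cells (8.85%), and DESeq2 called 1 member, Ltb in tubule-like cells. The members that were lower in tolerized kidneys without overlap numbered 4 of 9 in T cell-like cells, where 31.4% of all genes were, and 7 of 8 in tubule-like cells, where 30.5% were. The counts were 3 of 7 in NK cell-like (25.6%), 3 of 9 in myeloid-like (21.7%), 3 of 5 in B cell-like (26.5%), and 3 of 6 in endothelium-like cells (16.9%). Members higher without overlap were Tnfsf10 in NK cell-like cells (12.5% of all genes) and Tnfrsf1b in myeloid-like cells (14.9%). The median fold change of the members was −0.86 in tubule-like cells, against 0.01 over all genes, and between −0.41 and −0.09 in the other 5. Tolerized kidneys alone would not have carried some members past the filter on low counts. They were Tnf and Tnfrsf1b in tubule-like, Ltb in endothelium-like, Tnfrsf1b in B cell-like, Birc3 in NK cell-like, and Lta in myeloid-like cells. Had rejecting kidneys lain below tolerized ones, these would not have been tested. Their lower levels enter the counts and medians above.

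**Figure D3:**
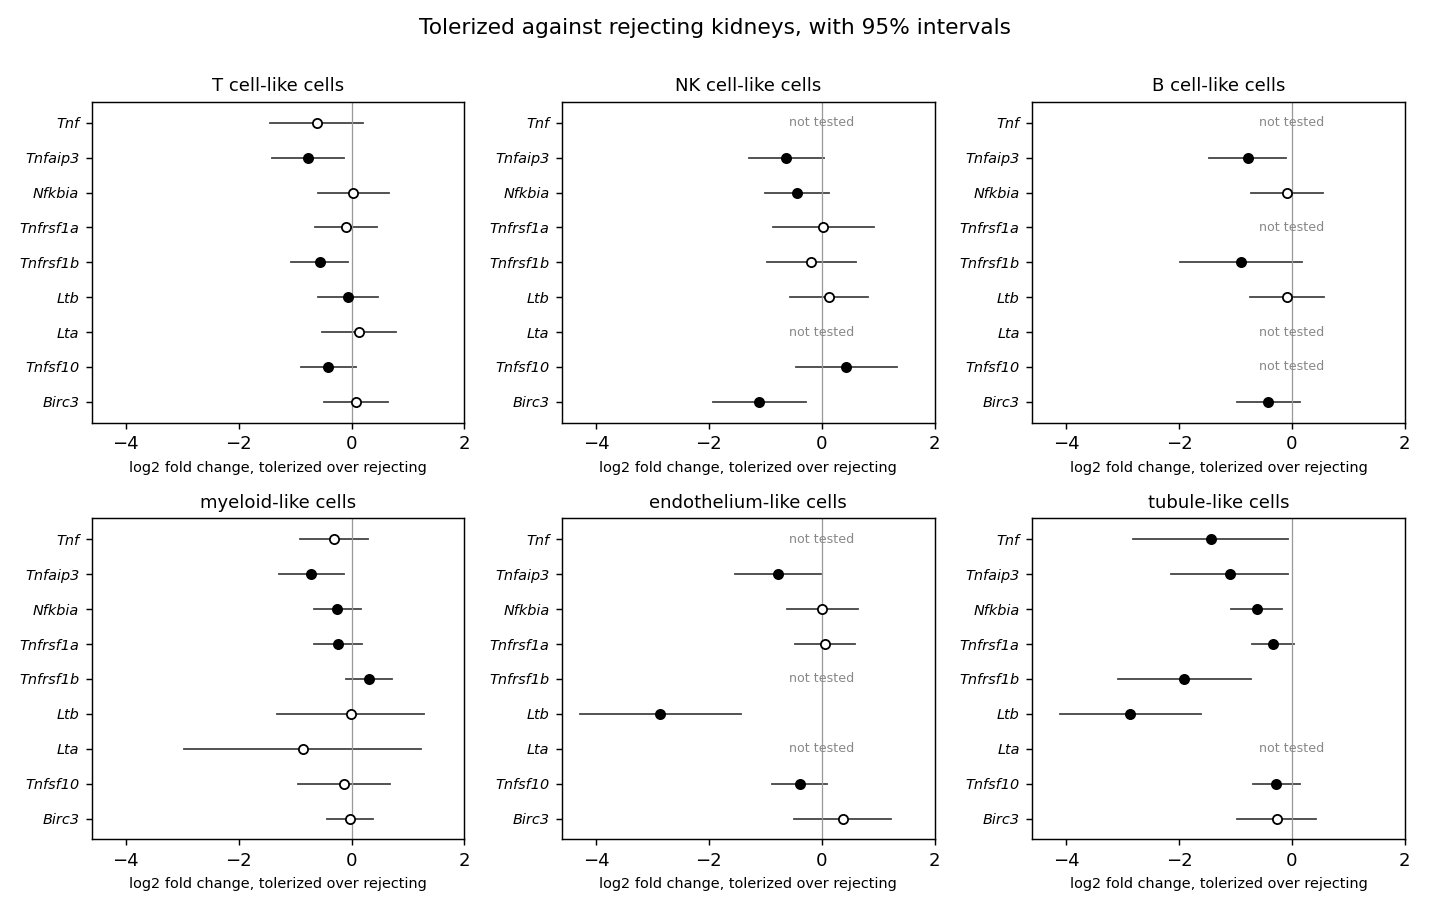
Log2 fold changes of tolerized over rejecting kidneys (horizontal axes) for each member and class, with 95% intervals from edgeR. Filled points mark members whose 2 groups of kidneys do not overlap in CPM and open points those that overlap. Tnfaip3 is filled and left of 0 in each of the 6 panels, and the intervals of Ltb in endothelium-like and tubule-like cells lie furthest to the left, around −2.86.

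Tubule-like cells held the most changes against naive kidneys. In rejecting kidneys 7 of the 8 members tested rose (Tnf, Tnfaip3, Nfkbia, Tnfrsf1a, Tnfrsf1b, Ltb, and Tnfsf10), where 18.2% of all genes were called higher, and none fell. In tolerized kidneys 5 of 8 rose (Tnf, Tnfrsf1a, Tnfrsf1b, Ltb, and Tnfsf10), where 12.8% were. The median fold change of the members was 2.21 and 1.67, against 0.02 over all genes in each comparison. Tnf, Tnfrsf1b, and Ltb, at 0.387 CPM or less in naive kidneys, passed the filter on low counts through transplanted kidneys alone. A fall of these members against naive kidneys could not have been called, and their rises enter the counts and medians above. The 2 comparisons share their naive kidneys. Lta was not tested, with 0 UMIs in naive tubule-like cells and 11 and 18 in the rejecting and tolerized groups.

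The tubule-like cells of naive and transplanted kidneys fell mostly into different clusters. Of 11 proximal tubule-like clusters, 4 (clusters 1, 3, 12, and 15) held 8415 naive cells among 8433, and 6 (clusters 4, 11, 14, 16, 19, and 28) held 5 naive cells among 8229. In the 5 tubule-like clusters with at least 20 cells in every kidney (7, 13, 22, 25, and 30, of the loop of Henle, distal convoluted tubule, and collecting duct), 4 members rose in rejecting kidneys, where 28.3% of all genes were called in either direction. They were Nfkbia (0.92, FDR 0.0284), Tnfrsf1a (0.78, FDR 0.0151), Ltb (5.59, FDR 0.00175), and Tnfsf10 (3.03, FDR 1.06e-05) by edgeR. In tolerized kidneys Tnfsf10 alone rose there (2.87, FDR 1.44e-05), where 19.9% were called in either direction. Tnf, Tnfrsf1b, and Lta were below the filter on low counts in these clusters and were not tested. Ltb, on 3 and 2 naive UMIs there, passed it through transplanted kidneys alone, so that a fall could not have been called. This grouping was chosen after the data were seen.

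Ltb rose in parenchymal sums along with T cell markers. Tubule-like cells held 0.176 and 0.387 CPM of Ltb (naive), 28.3 and 7.76 (rejecting), and 2.28 and 2.23 (tolerized). The fold change over naive kidneys was 5.71 (SE 0.72, FDR 0.00111) in rejecting and 2.85 (SE 0.74, FDR 0.0278) in tolerized kidneys by edgeR, and the tolerized call was lost without any 1 of the naive or tolerized kidneys and in the clusters present in every kidney (2.93, FDR 0.0779). Endothelium-like cells held 0 and 1.16 CPM on 1 UMI (naive), 39.8 and 17.0 (rejecting), and 3.75 and 4.26 (tolerized), and edgeR called the rejecting kidneys (FDR 0.00592) at a count ratio of 52.1 (8.78 to 2116). That call was lost without either naive kidney and without rejecting kidney 1. The 13 T cell markers summed to 3.30 and 2.95 CPM (naive), 156 and 55.3 (rejecting), and 21.7 and 16.3 (tolerized) in tubule-like cells, and all 13 were detected in each transplanted kidney. In endothelium-like cells they summed to 12.1 and 4.65, 223 and 204, and 18.1 and 25.6 CPM, with 9 to 13 of the 13 detected per transplanted kidney. For each 100 T cell marker UMIs, Ltb gave 9.27 to 13.2 UMIs in T cell-like cells of transplanted kidneys, 10.5 to 18.1 in tubule-like cells, and 8.33 to 20.7 in endothelium-like cells. The differences of tolerized from rejecting kidneys, −2.86 (SE 0.55, FDR 0.241) in tubule and −2.86 (SE 0.65, FDR 0.331) in endothelium, were not called by edgeR. Whether this Ltb was RNA of T cells was not tested.

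**Figure D4:**
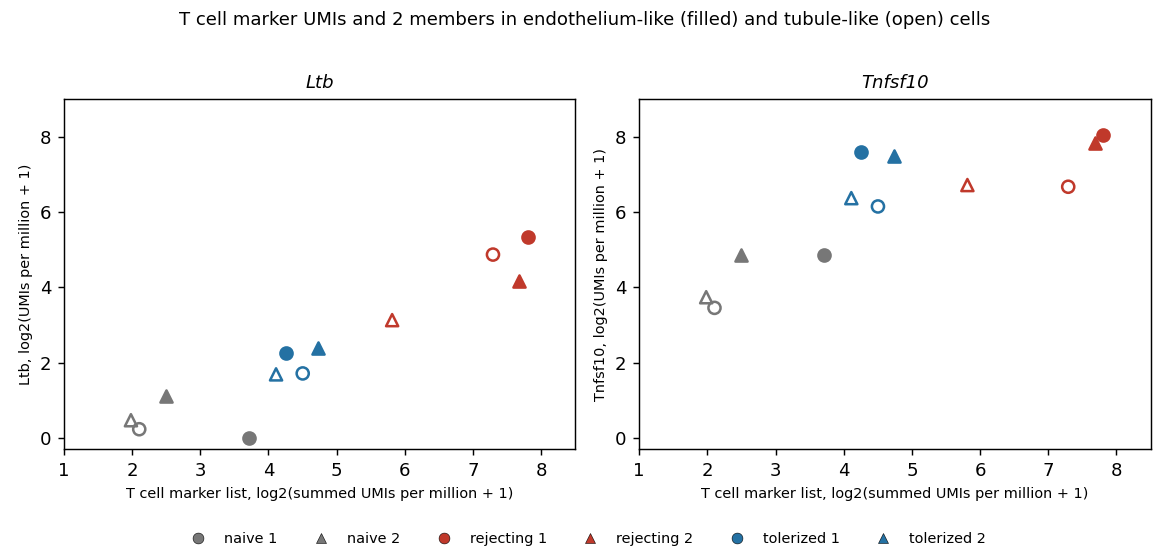
Ltb (left) and Tnfsf10 (right) as log2(CPM + 1) on the vertical axes against the summed T cell markers as log2(CPM + 1) on the horizontal axes, 1 point per kidney, filled for endothelium-like and open for tubule-like cells. Ltb lies low where the marker sum is low (2.95 to 25.6 CPM in naive and tolerized kidneys) and high where it is high (55.3 to 223 in rejecting kidneys). Tnfsf10 in tolerized kidneys stands near its level in rejecting kidneys at a far lower marker sum.

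In endothelium-like cells, 3 of the 6 members tested rose in rejecting kidneys (Tnfaip3, Ltb, and Tnfsf10), where 8.13% of all genes were called higher, and 2 of 6 rose in tolerized kidneys (Tnfaip3 and Tnfsf10), where 6.59% were. Tnfaip3 and Ltb passed the filter on low counts through transplanted kidneys alone, so that a fall of either against naive kidneys could not have been called. Cluster 31, led by Plpp1, Plat, and Ehd3, held 303 naive cells among its 306, whereas cluster 20 had cells of all kidneys. In cluster 20 alone the same 3 and 2 members rose, where 14.5% and 13.5% of genes were called in either direction. Tnfrsf1a and Nfkbia did not pass the test. Nfkbia stood at 643 and 469 CPM (naive), 333 and 459.7 (rejecting), and 333 and 449 (tolerized), without overlap of transplanted with naive kidneys. In cluster 20 alone, its differences from naive kidneys were 0.02 (rejecting) and 0.04 (tolerized). The dissociation genes summed to 17554 and 10799 CPM in naive and 6354 to 8426 in transplanted endothelium-like cells, and their part was not tested.

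**Figure D5:**
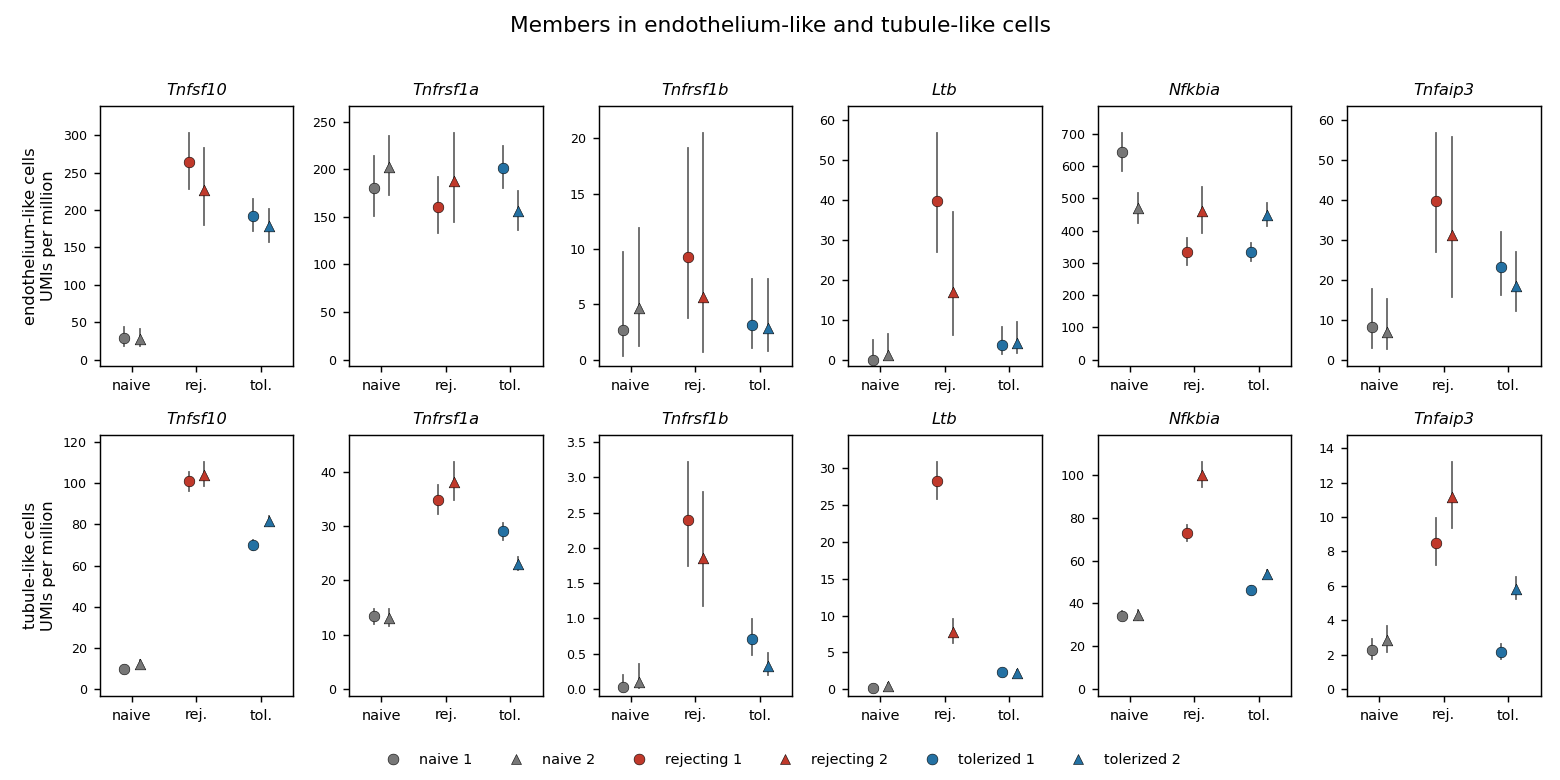
Levels of 6 members in CPM (vertical axes from 0, scaled per panel) in endothelium-like (top) and tubule-like cells (bottom), by group. Points are kidneys and bars are 95% intervals of counting. Tnfsf10 stands at 178 to 264 CPM in transplanted against 27.9 and 28.3 in naive endothelium-like cells.

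In myeloid-like cells 0 of the 9 members tested were called between rejecting and naive kidneys by edgeR, where 13.8% of all genes were, 1 had an unadjusted p under 0.05 as did 30.7% of all genes, and DESeq2 called 1 (Nfkbia). Between tolerized and naive kidneys 1 member (Nfkbia, lower) was called, where 7.56% of genes were. Monocyte-like cells alone were a grouping chosen after the data were seen. There 1 member (Tnf, higher) was called in rejecting kidneys, where 6.67% of genes were called in either direction. None was called by edgeR in tolerized kidneys, where 3.56% were. Tnf stood there at 0 and 10.8 CPM on 1 UMI (naive), at 49.96 and 41.7 (rejecting), and at 30.8 and 27.1 (tolerized). The naive kidneys held 33 and 26 such cells. Tnf passed the filter on low counts through transplanted kidneys alone, so that a fall against naive kidneys could not have been called.

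Other genes of the pathway were read from 5 lists of 50 genes in all. Between tolerized and rejecting kidneys, 0 genes of these lists were called in any class. Against naive kidneys, 18.2% (rejecting) and 12.8% (tolerized) of all genes were called higher in tubule-like cells. Of the NF-κB subunits there, 4 of 5 rose in rejecting (Nfkb1, Nfkb2, Rel, and Relb) and 3 of 5 in tolerized kidneys. Of the other feedback genes, 7 of 13 rose in rejecting and 2 of 13 in tolerized tubule-like cells. The receptor adaptors and kinases gave 3 higher and 2 lower of 14 in rejecting and 1 higher and 1 lower in tolerized kidneys. Of the 10 TNF targets tested there, 5 rose and 1 fell in rejecting kidneys and 3 rose and 1 fell in tolerized kidneys. The gene that fell, Sod2, a mitochondrial superoxide dismutase, was named after its value was seen. The partner receptors and ligands gave 3 and 2 higher of 5. The 10 dissociation genes gave 4 higher in rejecting and 1 in tolerized tubule-like cells, and their part in these counts was not tested.

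Vcam1, the adhesion molecule for leukocytes bearing VLA-4, held 0.281 and 0.097 CPM in naive tubule-like cells, 62.6 and 40.8 in rejecting, and 30.4 and 9.68 in tolerized ones. Its fold change over naive kidneys was 7.62 (SE 0.72, FDR 0.000274) and 6.37 (SE 0.72, FDR 0.000765) by edgeR. Icam1, the ligand of LFA-1, rose from 3.69 and 3.29 CPM to 34.0 and 34.9 (rejecting) and 21.9 and 18.01 (tolerized). Its fold changes were 2.94 (SE 0.18, FDR 3.45e-05) and 2.30 (SE 0.18, FDR 0.000109) by edgeR. The chemokine gene Ccl2 (FDR 0.0267), on 2 naive UMIs, had a count ratio of 110.1 (29.9 to 919) in rejecting kidneys, and Tnip3 (FDR 0.0409), the gene of an A20-binding protein on 3 naive UMIs, one of 17.0 (5.33 to 86.9). Among the genes named for tolerized kidneys were Nfkbie, the gene of IκBε (2.17, FDR 0.000897), and Relb (2.14, FDR 0.00371). Relb was called in rejecting kidneys as well. At most 5 genes were named per comparison, so that a gene named for a single group may have been called in the other too. Tnfrsf14 was called too, but it had 0 UMIs in all naive cells and 216 to 333 in each transplanted kidney, and its difference cannot be told apart from the differing gene lists. Vcam1, Ccl2, and Tnip3, on few naive UMIs, passed the filter on low counts through transplanted kidneys alone, as did Tnfrsf14. A fall of these genes against naive kidneys could not have been called, and their rises enter the list counts of the paragraph before. Ccl2 was also a leading gene of macrophage-like cluster 2, and the macrophage markers rose in the same tubule-like sums. The part of macrophage RNA in the Ccl2 and Vcam1 differences was not tested.

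In endothelium-like cells, Sele, the gene of E-selectin, held 0 and 1.16 CPM in naive kidneys, on 1 UMI, against 23.9 and 34.1 (rejecting) and 26.3 and 17.8 (tolerized) ones. The count ratios were 43.5 (7.22 to 1773) and 35.7 (6.19 to 1431), and both were called (FDR 0.00283 and 0.00367 by edgeR). Sele passed the filter on low counts through transplanted kidneys alone, so that a fall could not have been called, and its rise enters the list counts below. Icam1 rose there by 1.67 (SE 0.31, FDR 0.00577) and 1.63 (SE 0.30, FDR 0.00633), and the kinase gene Ripk1 by 1.60 (SE 0.34, FDR 0.0108) and 1.53 (SE 0.32, FDR 0.012). Also named were Vcam1 (2.04, FDR 0.0286) and Rel (1.88, FDR 0.0441) for rejecting kidneys. For tolerized ones they were Birc2, the gene of cIAP1 (1.58, FDR 0.0142), and the deubiquitinase gene Cyld (1.31, FDR 0.031). With at most 5 genes named per comparison, these names do not show a difference between the 2 transplanted groups. Where 8.13% and 6.59% of all genes were called higher, the lists gave 3 higher and 1 lower (Gadd45b, a stress gene) of 9 TNF targets in rejecting and 2 higher in tolerized kidneys, 1 and 0 of 5 NF-κB subunits, 2 and 2 of 12 other feedback genes, 1 and 1 of 12 adaptors and kinases, and 0 of 4 partners. Of the 10 dissociation genes, 6 fell in rejecting and 3 in tolerized kidneys.

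In myeloid-like cells, where the median fold change of all genes against naive kidneys was 0.18 and 7.54% (rejecting) and 4.57% (tolerized) of genes were called higher, 6 of 11 TNF targets rose and 1 fell in rejecting kidneys, and 4 rose and 1 fell in tolerized ones. NF-κB subunits gave 3 and 1 higher of 5, other feedback genes 3 and 3 of 13, adaptors and kinases 1 and 0 of 14, and partners 1 and 0 of 5. The gene that fell was Cxcl2, a chemokine gene for neutrophils, with 163 and 1466 CPM in naive and 66.4 to 152 in transplanted kidneys. Vcam1 rose by 2.80 (SE 0.37, FDR 0.00197) and Gadd45b by 2.77 (SE 0.30, FDR 0.0011) in rejecting kidneys by edgeR. In each transplanted group 8 of the 10 dissociation genes fell, while 1 (Fosb) rose in rejecting kidneys.

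Over 82 sums of at least 20 cells in 16 classes, the genes whose log2(CPM + 1) was most like that of a member, among 14638 genes, were named as a description, since sums of a kidney share their library. Closest to Nfkbia were H3f3b (Pearson r 0.900), Ifrd1 (0.887), and Junb (0.885), and closest to Tnfaip3 were D16Ertd472e (0.852), Glipr2 (0.822), and Ctse (0.822). Closest to Tnf were Apobr (0.873), Ccdc88b (0.852), and Myo1f (0.844), and closest to Ltb were Tbc1d10c (0.894), Traf3ip3 (0.872), and Cd37 (0.871). For Lta, at few UMIs, they were Pacsin1 (0.772), Slamf6 (0.697), and Ccr6 (0.691). The neighbors Tnf, Lta, and Ltb were not among each other's 3 closest genes.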

How the data were processed

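Cells of 6 mouse kidneys were counted with 1 droplet library per kidney. The authors deposited raw UMI counts per gene and cell, without normalization, made with Cell Ranger against mm10 per the submitters' notes, and the file headers of the transplanted kidneys name version 3.0.1. The UMIs make each count a molecule rather than a read.

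Barcodes under 500 UMIs or 250 genes, or over 50% mitochondrial UMIs, were dropped, which left 49797. Scrublet's own threshold marked 440 doublets, so the highest scores were removed instead, at 0.8% per 1000 barcodes (4130 cells). Clustering used scanpy 1.11.5 and Leiden at a resolution of 1.5 on 40 components of 2500 variable genes, without integration of the kidneys. The members and pathway genes took no part in it. Clusters were named by at least 3 markers.

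Counts were summed per kidney and class and tested with edgeR 4.0.16 (filterByExpr, TMM, quasi-likelihood) in R 4.3.3, which was tested on simulated data. For T, NK, B, and myeloid-like cells the 4 transplanted kidneys made up the fit of tolerized against rejecting, and all 6 kidneys entered every other fit. DESeq2 1.42.0 was an alternative. Intervals on counts are exact Poisson intervals at 95%, and a count of 0 was bounded by 3 counts.

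Named are the 9 members and, from the other lists, at most the 5 called genes with the largest fold change per comparison, while the rest are counted. The members and lists were chosen with earlier results of these data known. The cells were not sorted by donor and recipient.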

Additional observations from a re-analysis of the deposited data

Results flagged for a closer look

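A few genes (3 of the 9 members) went one way in both kidneys of a group in some classes and the opposite way in others, and these differences between classes were not tested. How many of all genes did so was not counted. Groups without overlap were common between tolerized and rejecting kidneys. Of all genes, 25.6% were lower and 12.5% higher in NK cell-like cells, and 21.7% and 14.9% in myeloid-like cells. The values below are log2 fold changes from edgeR.

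Over naive kidneys, Nfkbia was at −0.68 in myeloid-like and −0.55 in endothelium-like cells of rejecting kidneys but at 0.97 in tubule-like cells. In tolerized kidneys it was at −0.92 in myeloid-like, −0.54 in endothelium-like, and 0.34 in tubule-like cells. Of these, the tubule value of rejecting and the myeloid value of tolerized kidneys passed the test. In the endothelium-like cluster with cells of all kidneys, the values were 0.02 for rejecting and 0.04 for tolerized kidneys.

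Tnfrsf1b of tolerized against rejecting kidneys was at −0.56 in T cell-like, −0.91 in B cell-like, and −1.90 in tubule-like cells but at 0.31 in myeloid-like cells, and none passed the test. In B cell-like and tubule-like cells, tolerized kidneys alone would not have carried it past the filter on low counts.

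Tnfsf10 of tolerized against rejecting kidneys was at −0.41 in T cell-like, −0.39 in endothelium-like, and −0.28 in tubule-like cells but at 0.44 in NK cell-like cells, where it rests on 8 to 22 UMIs per kidney. None of these passed the test.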

How the results depend on the processing

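Alternatives were DESeq2's test or size factors, no filter on low counts, doublets kept, stricter UMI or mitochondrial limits, other cells or kidneys in the fit, a replicate block, and leaving out each kidney. For the number of members called, 138 of 172 alternatives over 12 comparisons stayed within 1.5 times the main count. In 4 of the 7 comparisons with 0 members called (T, NK, B, and myeloid-like cells, tolerized against rejecting), the count stayed at 0 throughout.

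Between tolerized and rejecting kidneys, 1 member was called in tubule-like cells by DESeq2 and 3 without the filter (Tnfaip3, Tnfrsf1b, and Ltb), and 1 in endothelium-like cells without the filter (Ltb). Among all genes, DESeq2 called 7 to 213 per class and edgeR without the filter 55 to 677, against 0 to 5 in edgeR with the filter. In myeloid-like cells, rejecting against naive, 1 member was called by DESeq2, with its size factors, without the filter, with doublets kept, in macrophage-like and macrophage/monocyte-like cells alone, and in monocyte-like cells alone. It was not the same member throughout, but Nfkbia in 4 of these settings, Ltb in 1, and Tnf in monocyte-like cells alone. Tolerized against naive, 2 were called without the filter and 0 in monocyte-like cells alone. In monocyte-like cells alone, Tnf turned its sign in rejecting (to 3.28, called) and tolerized kidneys (to 2.69, not called), as did Nfkbia in tolerized (to 0.306) and rejecting kidneys (to 0.77), and Tnfaip3, Tnfrsf1b, and Ltb, uncalled, in tolerized ones. In endothelium-like cells, tolerized against naive, 1 was called with DESeq2, its size factors, the replicate block, or doublets kept. In tubule-like cells, rejecting against naive, 4 were called at most 20% mitochondrial UMIs and 4 in clusters present in every kidney, and tolerized against naive 3 with doublets kept, 3 at most 20% mitochondrial UMIs, and 1 in clusters present in every kidney. The causes were not tested.

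Leaving out each kidney in turn gave 0 to 1 members in myeloid-like cells of tolerized against naive kidneys (0 without either naive kidney or tolerized 2), 1 to 3 in endothelium-like cells of rejecting and 1 to 2 of tolerized against naive kidneys, and 0 to 1 in tubule-like cells of tolerized against rejecting kidneys (1, Ltb, without rejecting 2). In tubule-like cells it gave 5 to 7 in rejecting and 1 to 5 in tolerized against naive kidneys (1 without either naive kidney or tolerized 1). A group left with 1 kidney is assumed to vary like the others. Without 1 kidney, edgeR called up to 247 genes in T cell-like cells.

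Kidneys with the same number deviated together in tubule-like cells at most. The correlation of deviations between rejecting and tolerized kidneys was −0.21 in T, 0.0032 in NK, −0.15 in B, −0.19 in myeloid, 0.02 in endothelium, and 0.28 in tubule-like cells. Since not every pair was over 0.1, the numbers were not taken to pair the kidneys. With the replicate block, Birc3 was gained in rejecting against naive tubule-like cells (FDR 0.0396), Tnfaip3 was lost in tolerized against naive endothelium-like cells (FDR 0.0565), and 27 genes were called in NK cell-like cells. The crossed pairing, chosen after the data were seen like the monocyte and shared-cluster groupings, called 0 members and 1, 91, and 18 genes in T, myeloid, and B cell-like cells.

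With 2 kidneys per group, an uncalled difference is not shown to be absent, and its 95% interval gives what remains possible. Naive lymphocytes, Lta, and Tnf outside leukocytes rest on few UMIs.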
